A study of Mus musculus with 12 samples.

Results

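The insulin-like growth factor (IGF) binding protein genes Igfbp2, Igfbp3, Igfbp4, Igfbp5, Igfbp6 and Igfbp7, the receptor genes Igf1r and Insr, and the receptor substrate genes Irs1 and Irs2 were examined in mouse mammary epithelial cells. These 10 genes were chosen by symbol from the 28427 gene rows of the deposited tables, each had a row of its own, and all 10 were among the 13951 genes with enough counts for a test. RNA sequencing libraries had been made from C57BL/6 cells grown as monolayers on a collagen coat or embedded as spheroids in growth factor-reduced Matrigel, a tumour-derived basement membrane gel. Each format was sampled at 48 h and at 96 h with 3 libraries, described in the series as biological replicates, giving 12 libraries in 4 groups. All cultures received progesterone and prolactin, and the gels had their medium renewed after 48 h. Format and matrix changed together, so their parts in a difference cannot be told apart. Nor can the medium renewal of the gels be told apart from format at 96 h or from time in spheroids. The sources used here do not say whether the medium supplements held insulin. Nor do they say whether the replicates came from different animals, so the p-values measure the spread between these cultures.

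IGF1 and IGF2 act through the type 1 IGF receptor, a tyrosine kinase related to the insulin receptor. Active receptors phosphorylate the docking proteins IRS1 and IRS2, which recruit phosphoinositide 3-kinase (PI3K) and so switch on AKT and mTOR and hold FoxO transcription factors out of the nucleus. Secreted binding proteins hold IGFs in the extracellular space with high affinity and release them when proteases cut the binding protein, while IGFBP7 binds IGFs only weakly. In the mammary gland, IGF signalling supports duct growth and cell survival, and Igfbp5 is best known there for its rise when milk production stops and the gland regresses.

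Library totals lay between 7674105 and 13554497 counts. Levels are given as CPM, read counts scaled to library size by the trimmed mean of M values (TMM), with the mean ± SD over 3 libraries. Called means an adjusted p under 0.05 in edgeR's quasi-likelihood test, 2-sided, with Benjamini-Hochberg adjustment over all tested genes. The terms rose, fell, higher and lower with a p refer to that test, log2 differences carry their standard error (SE), and "fold" is the linear size of the difference. The 5 luminal markers summed to 4170 to 10600 CPM and the 7 basal markers to 351 to 2620 CPM over the libraries, and none of them was at 0 in any group. The 8 fibroblast markers, also all present, summed to 7790 to 8560 CPM in 48 h monolayers, 1990 to 2260 in 48 h spheroids, 1770 to 2430 in 96 h monolayers and 682 to 737 in 96 h spheroids. In bulk RNA, fewer cells of a type and less RNA per cell cannot be told apart. The 48 h monolayer libraries differed most among themselves: the chi-square per degree of freedom between replicates 1 and 3 was 17.2, against 2.4 to 9.23 for the other 11 replicate pairs. Scaling to total counts in place of TMM moved the share of called genes that were higher from 54.5% to 65.1% for spheroids against monolayers at 48 h, from 49% to 66.2% for 96 h against 48 h in monolayers, and from 50.5% to 34.2% for the difference between the spheroid effects at the 2 times.

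Spheroids held far more Igfbp5 mRNA than monolayers, less Igfbp3 and Igfbp7 mRNA, and, at 96 h, less of both receptor and both substrate mRNAs. At 48 h, 9 of the 10 genes were called, 3 higher and 6 lower in spheroids, against 57.9% of all tested genes (31.6% higher and 26.4% lower). Their median log2 difference was -0.30, beside 0.05 over all tested genes. By 96 h all 10 were called, 3 higher and 7 lower, against 73.8% of all tested genes (37.3% higher and 36.5% lower), and their median was -0.72 beside -0.0015 over all genes. The monolayer and spheroid libraries did not overlap for 7 of the 10 genes at 48 h, where 60% of all tested genes did not, and for 10 of 10 at 96 h, where 78.9% did not. Since most tested genes were called in these comparisons, the counts alone say little about the 10. Among those called, the differences ran from 1.23-fold to 91.4-fold at 48 h.

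**Figure D1:**
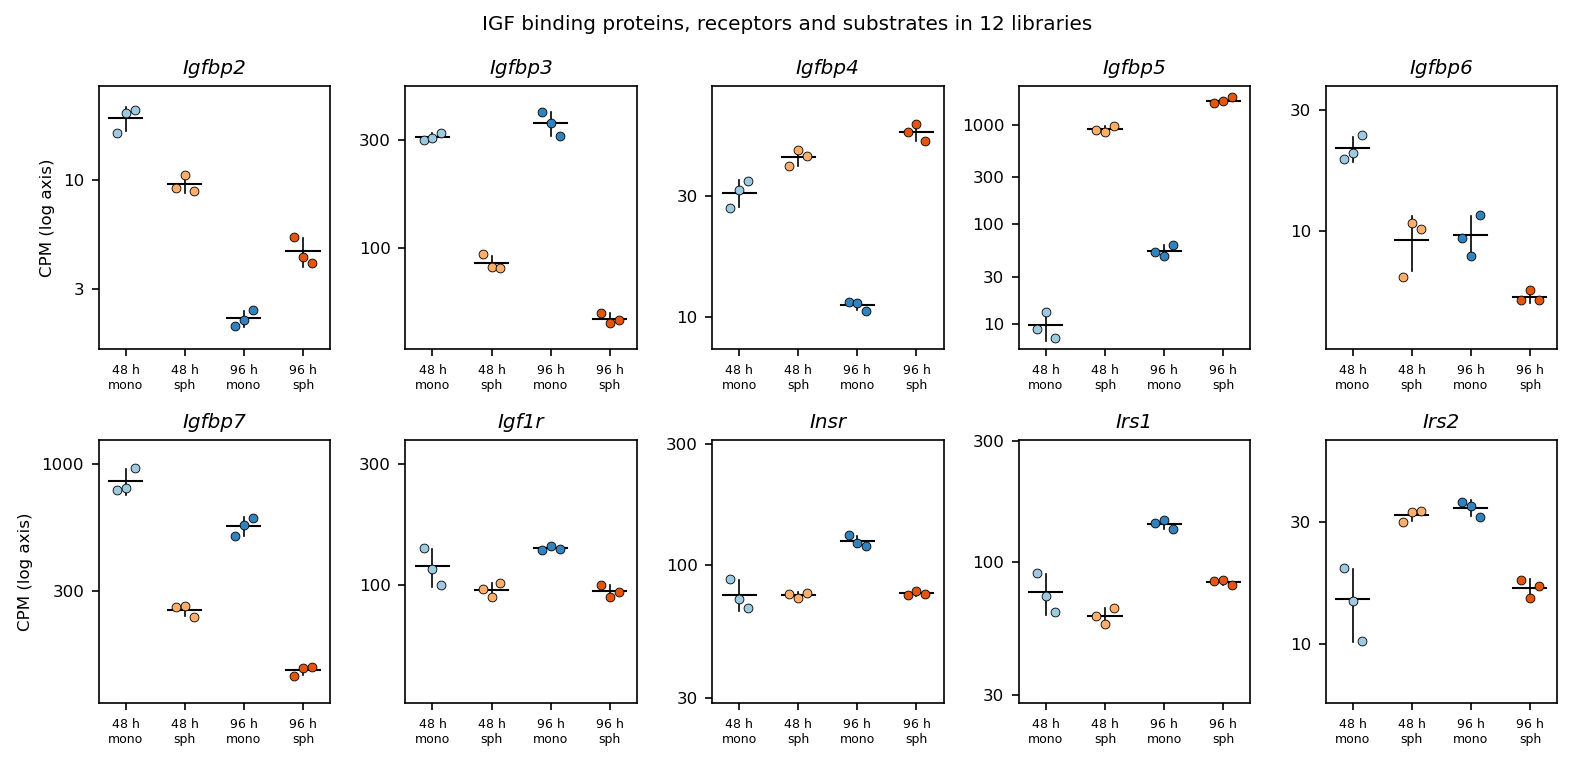
Levels of the 10 genes in the 12 libraries, as CPM on a log axis, with 1 panel a gene. Points are libraries, lines the mean of 3 and bars the SD. Igfbp5 rises from 9.87 CPM in 48 h monolayers to 1757 CPM in 96 h spheroids, Igfbp3 and Igfbp7 are low in both spheroid groups, and Irs2 is high in 48 h spheroids and 96 h monolayers.

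The 4 binding protein genes with the largest spheroid to monolayer differences at 96 h were Igfbp5 and Igfbp4, which were higher in spheroids, and Igfbp3 and Igfbp7, which were lower. Their proximal promoters, the 250 bases before the annotated start, are shown so that the genes that moved up together can be set beside those that moved down together. Sequences and positions are from RefSeq on GRCm38.p6, a later build than the mm9 build behind the counts. They lie at chr1:72874866-72875115 (minus strand, Igfbp5), chr11:99040994-99041243 (plus strand, Igfbp4), chr11:7213924-7214173 (minus strand, Igfbp3) and chr5:77408046-77408295 (minus strand, Igfbp7), upstream of the first exon, and read 5′ to 3′ toward the gene. Capitals mark matches on either strand to the TATA box (TATAAA), E-box (CANNTG), AP-2 motif (GCCNNNGGC) and GC box (GGGCGG).
Igfbp5: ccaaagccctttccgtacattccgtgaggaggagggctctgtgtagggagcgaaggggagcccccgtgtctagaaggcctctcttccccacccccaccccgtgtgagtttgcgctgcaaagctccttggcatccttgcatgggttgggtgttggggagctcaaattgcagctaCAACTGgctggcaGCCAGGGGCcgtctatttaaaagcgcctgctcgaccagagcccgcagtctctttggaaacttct
Igfbp4: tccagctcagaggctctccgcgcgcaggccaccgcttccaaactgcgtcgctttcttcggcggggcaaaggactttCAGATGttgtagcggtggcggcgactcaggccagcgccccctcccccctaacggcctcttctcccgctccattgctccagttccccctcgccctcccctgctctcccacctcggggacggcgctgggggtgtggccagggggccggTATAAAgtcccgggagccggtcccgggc
Igfbp3: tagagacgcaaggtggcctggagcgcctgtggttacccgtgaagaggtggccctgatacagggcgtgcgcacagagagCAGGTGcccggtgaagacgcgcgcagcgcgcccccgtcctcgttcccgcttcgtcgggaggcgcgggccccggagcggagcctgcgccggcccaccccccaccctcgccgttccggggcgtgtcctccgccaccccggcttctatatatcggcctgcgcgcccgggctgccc
Igfbp7: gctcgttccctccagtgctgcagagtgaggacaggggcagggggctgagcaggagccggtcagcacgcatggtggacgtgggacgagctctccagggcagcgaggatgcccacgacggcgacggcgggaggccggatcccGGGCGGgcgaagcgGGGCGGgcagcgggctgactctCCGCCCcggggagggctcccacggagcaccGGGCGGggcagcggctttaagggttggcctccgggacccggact
The Igfbp5 promoter held 1 E-box, whose first base lay 77 bases before the start, and 1 AP-2 match beginning 64 bases before it. Of the 32851 mouse promoters of the same length, 66.2% held an E-box and 13.7% an AP-2 match, so the second was the less common of the pair. The Igfbp4 promoter held a TATA box 28 bases before the start, a motif present in 12.4% of promoters, and an E-box at 174 bases. Igfbp3 had 1 E-box, at 172 bases, and none of the other marked motifs. Igfbp7 had 4 GC boxes, which 32.7% of promoters held at least once, and none of the other marked motifs. No motif was shared by both members of the falling pair, and the E-box shared by the rising pair was also in Igfbp3. GC content was 58.8% in the Igfbp5 promoter, 69.2% in Igfbp4, 73.2% in Igfbp3 and 74% in Igfbp7. Of 4 further motifs searched on both strands, FOXO (TGTTTAC), STAT5 (TTCNNNGAA) and AP-1 (TGANTCA) had no match in the 4 windows, and TEAD (GGAATG) had 1, in Igfbp5, 233 bases before the start. These 4 motifs were in 3.17%, 7.02%, 6.75% and 12.6% of all promoters. A match describes the letters in the window and is not evidence of a bound factor.

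Igfbp5 encodes a matrix-associated binding protein. Its level was 9.02, 13.3 and 7.25 CPM in the 48 h monolayers, 896, 851 and 985 CPM in the 48 h spheroids, 52.7, 48.4 and 62.8 CPM in the 96 h monolayers, and 1660, 1721 and 1890 CPM in the 96 h spheroids. Every spheroid library lay far above every monolayer library, and within each format every 96 h library lay above every 48 h library. Spheroids were higher by 6.51 ± 0.16 on the log2 scale at 48 h, 91.4-fold (adjusted p = 1.43e-16), and by 5.00 ± 0.14 at 96 h, 32.1-fold (adjusted p = 5.12e-16). Among the 13951 tested genes this was the 46th highest difference at 48 h and the 78th highest at 96 h. With time, Igfbp5 rose 5.50-fold in monolayers (adjusted p = 2.02e-10) and 1.93-fold in spheroids (adjusted p = 1.85e-06). The log2 spheroid effect was smaller at 96 h by 1.51 ± 0.19 (adjusted p = 2.92e-06), although the gap in CPM was larger at 96 h. The 48 h monolayer level rested on 334 counts over 3 libraries, and on log2 FPKM the 48 h difference was 5.92.

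Igfbp4, whose protein is cut by the protease pappalysin-1 in the presence of IGF, was also higher in spheroids. It measured 26.9, 31.7 and 34.5 CPM in 48 h monolayers, 39.5, 45.9 and 43.3 in 48 h spheroids, 11.5, 11.4 and 10.6 in 96 h monolayers, and 53.8, 57.8 and 49.8 in 96 h spheroids. The groups did not overlap, with 96 h monolayers lowest and 96 h spheroids highest. The spheroid excess was 0.46 ± 0.09 on the log2 scale at 48 h, 1.38-fold (adjusted p = 0.000346), and 2.27 ± 0.10 at 96 h, 4.81-fold (adjusted p = 6.84e-13). Between the times Igfbp4 fell 2.78-fold in monolayers (adjusted p = 2.03e-09) and rose 1.25-fold in spheroids (adjusted p = 0.0064), so most of the widening came from the monolayer side. The difference between the spheroid effects at the 2 times was 1.81 ± 0.14 (adjusted p = 5.73e-09).

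Igfbp3, the gene of the main IGF carrier in serum, was lower in spheroids. Its level was 299, 306 and 323 CPM in 48 h monolayers, 94.1, 82.9 and 81.8 in 48 h spheroids, 398, 354 and 313 in 96 h monolayers, and 52.1, 46.8 and 48.3 in 96 h spheroids. The spheroid libraries lay below the monolayer libraries at each time, while the monolayers of the 2 times overlapped. The spheroid level was lower by a log2 value of -1.84 ± 0.09 at 48 h, 3.58-fold (adjusted p = 1.62e-12), and -2.86 ± 0.09 at 96 h, 7.24-fold (adjusted p = 3.13e-15). In spheroids it fell 1.76-fold with time (adjusted p = 6.88e-07). The monolayer change with time, 1.149-fold higher (adjusted p = 0.0379), held in 11 of 21 alternative analyses, and without the 96 h monolayer replicate 1 its log2 value went from 0.20 to 0.11. The 2 spheroid effects differed by -1.02 ± 0.12 (adjusted p = 1.27e-06).

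Igfbp7 had the highest level per length of any of the 10 genes in 3 of the 4 groups. It measured 783, 797 and 966 CPM in 48 h monolayers, 258, 260 and 235 in 48 h spheroids, 505, 562 and 599 in 96 h monolayers, and 134, 144 and 145 in 96 h spheroids. The 4 groups formed separate bands, with both spheroid groups below both monolayer groups. The spheroid log2 difference was -1.76 ± 0.09 at 48 h, 3.38-fold lower (adjusted p = 3.74e-12), and -1.97 ± 0.09 at 96 h, 3.93-fold lower (adjusted p = 4.86e-13). With time it fell 1.53-fold in monolayers (adjusted p = 5.77e-06) and 1.78-fold in spheroids (adjusted p = 4.17e-07). A difference between the spheroid effects at the 2 times was not called, at -0.21 with a 95% interval from -0.47 to 0.04 (adjusted p = 0.143), but it was called under total count scaling (-0.40, adjusted p = 0.00535), on log2 FPKM (-0.40, adjusted p = 0.00814) and without 48 h monolayer replicate 3 (-0.32, adjusted p = 0.0106).

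Igfbp6, which encodes a binding protein that prefers IGF2, was a low transcript. It stood at 19.3, 20.3 and 23.9 CPM in 48 h monolayers, 6.62, 10.8 and 10.2 in 48 h spheroids, 9.36, 8.02 and 11.6 in 96 h monolayers, and 5.35, 5.84 and 5.35 in 96 h spheroids. The 48 h monolayers were above all other libraries, and the 48 h spheroids overlapped the 96 h monolayers. Spheroids were 2.32-fold lower at 48 h (log2 -1.22 ± 0.16, adjusted p = 2.39e-06) and 1.77-fold lower at 96 h (log2 -0.82 ± 0.18, adjusted p = 0.000403). It fell 2.17-fold with time in monolayers (adjusted p = 5.28e-06) and 1.65-fold in spheroids (adjusted p = 0.00386), and the difference between the spheroid effects was 0.39, with a 95% interval from -0.11 to 0.90 (adjusted p = 0.175).

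The fibroblast marker sum moved with Igfbp3, Igfbp6 and Igfbp7 between formats: it was lower in every spheroid library than in every monolayer library of the same time. At 48 h, 5 of the 8 fibroblast markers were lower and 2, Pdgfra and Dcn, higher in spheroids. At 96 h 6 were lower and 1, Col3a1, higher. Of all tested genes, 26.4% were lower in spheroids at 48 h and 36.5% at 96 h. The shares that fell with time were 20.5% in spheroids and 31.3% in monolayers. Over time in spheroids all 8 fibroblast markers fell, as did Igfbp3, Igfbp6 and Igfbp7. Over time in monolayers the marker sum was lower at 96 h in every library, 6 of the 8 markers fell and 2 rose, Igfbp6 and Igfbp7 fell, and Igfbp3 did not fall. The 6 endothelial markers summed to 42.1 to 58.9 CPM in 48 h monolayers and 52.5 to 61.5 in 48 h spheroids. At 96 h they summed to 67.6 to 71.3 CPM in monolayers and 26.6 to 33.1 in spheroids. Within this sum Vwf was higher in spheroids, 6.05-fold at 48 h and 4.76-fold at 96 h. Of the other markers 3 were lower in spheroids at 48 h, and 5 at 96 h, by 3.25-fold to 14.2-fold. With time all 6 fell in spheroids, and 3 rose and 1 fell in monolayers. The 4 pericyte markers summed to 95.1 to 161 CPM over all libraries. Within the pericyte sum, Cspg4 was lower in spheroids 11-fold at 48 h and 12.9-fold at 96 h and Des 4.49-fold and 10.4-fold, in the direction of Igfbp3, Igfbp6 and Igfbp7, while Notch3 was higher 4.55-fold and 1.91-fold and Rgs5 was not tested. The 6 immune markers summed to 4.31 to 32.9 CPM, highest in the 96 h monolayers, and the 5 adipocyte markers to 0 to 3.03 CPM, with 4 of them at 0 in the 48 h monolayers. The part of other cell types in the binding protein levels was not tested.

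Igfbp2 changed direction between the 2 times. It stood at 16.9, 21.1 and 21.8 CPM in 48 h monolayers, 9.18, 10.5 and 8.91 in 48 h spheroids, 2, 2.13 and 2.38 in 96 h monolayers, and 5.35, 4.28 and 4.01 in 96 h spheroids. No 2 groups overlapped: monolayers were the highest group at 48 h and the lowest at 96 h. Spheroids were 2.1-fold lower at 48 h (log2 -1.07 ± 0.13, adjusted p = 1.47e-06) and 2.09-fold higher at 96 h (log2 1.06 ± 0.20, adjusted p = 9.67e-05). The opposite signs differed by 2.13 ± 0.24 on the log2 scale (adjusted p = 6.21e-07). Behind this stood a 9.16-fold fall with time in monolayers (adjusted p = 1.60e-11) against a 2.09-fold fall in spheroids (adjusted p = 2.34e-05). The 96 h monolayer level rested on 69 counts. On the authors' log2 FPKM values, which understate changes of low genes, the 96 h difference was 0.70 and the change in monolayers over time -2.47. The summed basal markers had the same order of groups, at 2280 to 2620, 1470 to 1590, 1200 to 1230 and 351 to 466 CPM in 48 h monolayers, 48 h spheroids, 96 h spheroids and 96 h monolayers, and so had the luminal markers, at 9240 to 10600, 6010 to 6400, 5660 to 5950 and 4170 to 4490 CPM. These sums joined unlike genes. In the same order of groups, mean Acta2 was 1207, 48.0, 19.7 and 153 CPM, and mean Krt14 was 494, 1033, 908 and 73.6 CPM. The group means of Krt5, Krt17, Trp63, Myh11 and Oxtr had other orders than the sum as well. Among the luminal markers, mean Krt8 had the order of the sum, and Krt18, Krt19, Epcam and Cdh1 did not. Single basal markers were split. At 48 h Krt5, Krt14, Trp63 and Oxtr were higher in spheroids, against the direction of Igfbp2, and Acta2, Krt17 and Myh11 were lower. Single luminal markers were split as well: Krt19 was higher in spheroids at 48 h and the other 4 were lower. At 96 h 4 were higher in spheroids and none lower. With time all 5 fell in monolayers, but in spheroids 3 rose and 1 fell, while Igfbp2 fell. The part of these markers in the Igfbp2 result was not tested. Igfbp2 and Igfbp5 are neighbouring genes on chromosome 1 in the RefSeq annotation. They moved in opposite directions between formats at 48 h and with time in both formats, but at 96 h both were higher in spheroids.

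**Figure D2:**
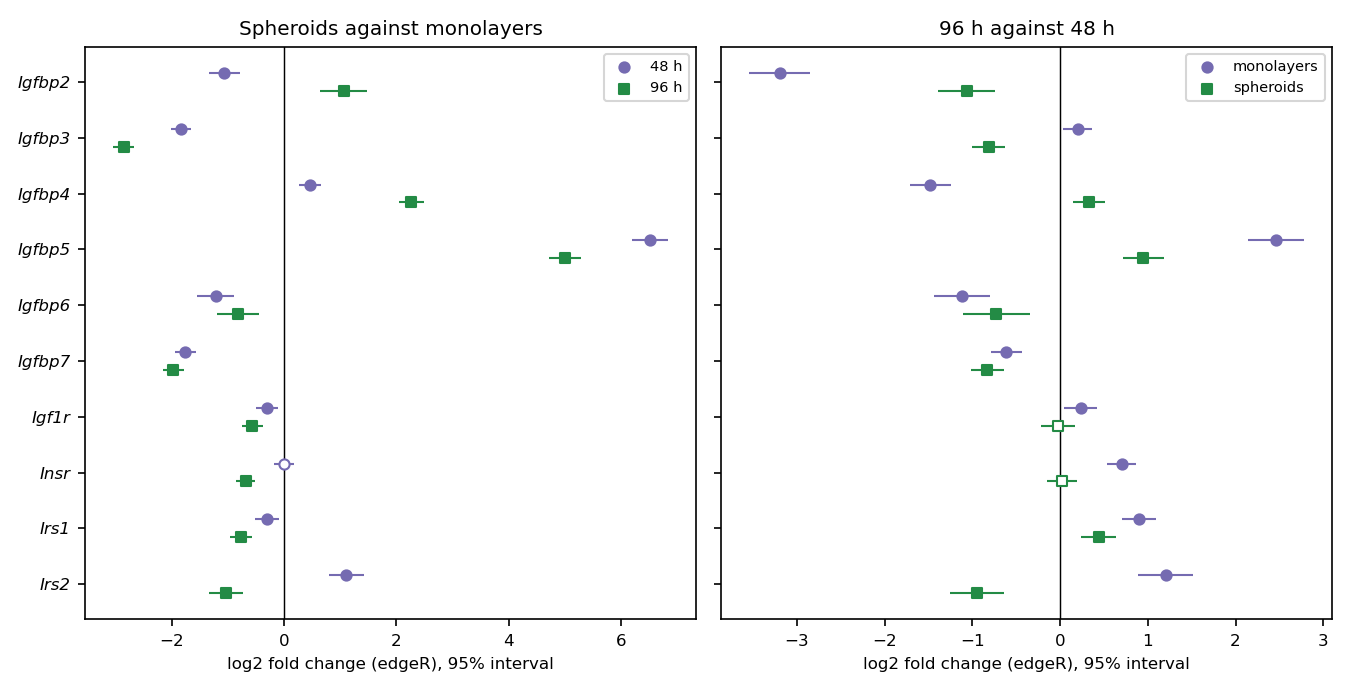
Log2 differences of the 10 genes with 95% intervals, spheroids against monolayers (left, circles 48 h and squares 96 h) and 96 h against 48 h (right, monolayers and spheroids); filled symbols mark an adjusted p under 0.05. Igfbp5 stands far to the right at 6.51 and 5.00, Igfbp2 and Irs2 change sign between the times, and the Insr value at 48 h lies at 0.

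Set beside each other per length, the 6 binding protein mRNAs differed between formats in make-up as well as in total. For this the authors' FPKM values were used, read fragments scaled to both gene length and library size, recovered from the deposited log2 values. The summed FPKM of the 6 genes was 835, 844 and 981 in 48 h monolayers, 459, 455 and 454 in 48 h spheroids, 694, 706 and 734 in 96 h monolayers, and 461, 483 and 514 in 96 h spheroids. Every spheroid library was below every monolayer library, with means of 456 against 887 at 48 h and 486 against 711 at 96 h. Igfbp7 made up 81.5 ± 1.0% of the sum in 48 h monolayers and 74.9 ± 3.4% in 96 h monolayers, but 50.5 ± 2.5% and 26.4 ± 0.85% in the spheroids of the same times. Igfbp5 took the opposite course, with 0.19 ± 0.08%, 1.38 ± 0.16%, 33.9 ± 2.7% and 62.5 ± 1.9% in the same order. Igfbp3 held 13.4 ± 0.87% and 21.6 ± 3.5% in monolayers against 7.79 ± 0.56% and 4.12 ± 0.44% in spheroids. For Igfbp5 and for Igfbp7, the shares of no 2 groups overlapped. The totals depend on the scaling to gene length: Igfbp5 in 96 h spheroids was at 1757 CPM but 304 FPKM. In 96 h monolayers the 2 highest of these genes, Igfbp7 and Igfbp3, were at 555 and 355 CPM. The lower spheroid total is thus a result per length and does not carry over to CPM at 96 h. These FPKM sums are of mRNA, and protein was not measured.

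**Figure D3:**
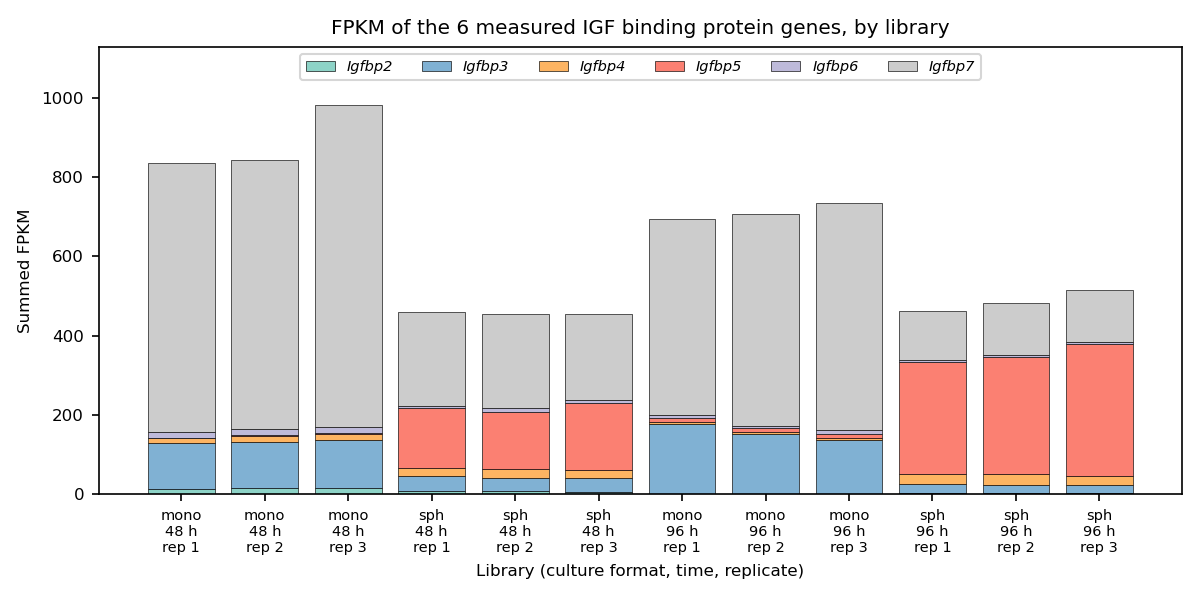
Stacked FPKM of the 6 binding protein genes in each of the 12 libraries. Monolayer bars reach 694 to 981 FPKM and are mostly Igfbp7, and spheroid bars reach 454 to 514 FPKM, with Igfbp5 the largest segment at 96 h.

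The order of the 10 genes by FPKM followed from this. In 48 h monolayers Igfbp7 (723 ± 76) was followed by Igfbp3 (118 ± 2.8), then by Igfbp6 (15.6), Igfbp2 (14.5) and Igfbp4 (14.04), which overlapped in range, by Igf1r (9.53), Insr (9.19) and Irs1 (7.65), which also overlapped, by Irs2 (3.45) and last by Igfbp5 (1.61 ± 0.58). In 48 h spheroids Igfbp7 (230 ± 12) led, Igfbp5 (154 ± 12) had moved from last to second, and Igfbp3 (35.5), Igfbp4 (20.9) and Insr (10.7) followed without overlap, ahead of a run of neighbours that overlapped, from Igf1r (8.13) through Irs2, Igfbp2 and Igfbp6 to Irs1 (6.66). By 96 h the monolayer order was Igfbp7 (533 ± 39), Igfbp3 (153 ± 20), Insr (16.7) overlapping Irs1 (16.02), Igf1r (12.3), a run of overlapping neighbours from Igfbp5 (9.80) through Irs2 (8.88) to Igfbp6 (8.01), Igfbp4 (5.70) and Igfbp2 (1.78). In 96 h spheroids Igfbp5 (304 ± 26) had passed Igfbp7 (128 ± 4.9), and Igfbp4 (25.9) had passed Igfbp3 (20.0). Below them lay Insr (10.1), Irs1 (8.93) and Igf1r (7.97), and then Igfbp6 (4.33), Irs2 (4.08) and Igfbp2 (3.53) with overlapping ranges.

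Both receptor transcripts were lower in spheroids at 96 h, and none of their called differences was above 1.63-fold. Igf1r, the type 1 IGF receptor, measured 141, 116 and 100 CPM in 48 h monolayers, 96.9, 90.5 and 102 in 48 h spheroids, 138, 143 and 140 in 96 h monolayers, and 101, 89.9 and 93.9 in 96 h spheroids. The formats overlapped at 48 h and were separate at 96 h, and the 2 times overlapped in spheroids and also in monolayers. At 96 h spheroids were 1.48-fold lower (log2 -0.56 ± 0.09, adjusted p = 2.18e-05). At 48 h the value was 1.23-fold lower (log2 -0.30 ± 0.09, adjusted p = 0.00918), and without 48 h monolayer replicate 1 it was -0.17 and no longer called (adjusted p = 0.0616). With time it was 1.18-fold higher in monolayers (adjusted p = 0.0333), a call kept in 13 of 21 alternative analyses, with log2 values from 0.13 without 48 h monolayer replicate 3 to 0.40. In spheroids the change with time was -0.02, with a 95% interval from -0.22 to 0.17 (adjusted p = 0.859). The difference between the spheroid effects was -0.26, with an interval from -0.53 to 0.02 (adjusted p = 0.103), and 5 of the 20 alternatives called it, at -0.32 to -0.44.

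Insr, the insulin receptor gene, stood out in 96 h monolayers. Its level was 88.2, 73.3 and 67.4 CPM in 48 h monolayers, 77.0, 73.7 and 77.3 in 48 h spheroids, 131, 122 and 119 in 96 h monolayers, and 76.2, 79.1 and 76.4 in 96 h spheroids. The first, second and last of these groups overlapped one another, and the 96 h monolayers lay above all of them. Spheroids at 96 h were 1.61-fold lower (log2 -0.68 ± 0.08, adjusted p = 3.34e-07), and at 48 h the difference was -0.0038 with an interval from -0.18 to 0.17 (adjusted p = 0.972). Monolayers rose 1.63-fold with time (adjusted p = 5.76e-07), while the spheroid change was 0.02 with an interval from -0.15 to 0.19 (adjusted p = 0.852). The spheroid effects at the 2 times differed by -0.68 ± 0.11 (adjusted p = 6.84e-05). The sign of the 48 h difference depended on the scaling, with 0.10 under total count scaling and 0.24 on log2 FPKM. Igf1r FPKM per Insr FPKM was 1.08 ± 0.19 in 48 h monolayers, 0.76 ± 0.04 in 48 h spheroids, 0.74 ± 0.07 in 96 h monolayers and 0.79 ± 0.02 in 96 h spheroids. In 48 h monolayers this ratio ranged from 0.86 to 1.197 over the libraries, above all others.

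Irs1, the substrate gene with the higher counts, had its highest level in 96 h monolayers, as both receptors had. It measured 91.2, 73.7 and 63.8 CPM in 48 h monolayers, 61.5, 57.3 and 66.1 in 48 h spheroids, 143, 148 and 135 in 96 h monolayers, and 84.2, 85.4 and 81.2 in 96 h spheroids. The 96 h monolayers were the highest libraries, and the formats overlapped at 48 h. Spheroids were 1.69-fold lower at 96 h (log2 -0.76 ± 0.09, adjusted p = 6.27e-07). At 48 h they were 1.23-fold lower (log2 -0.30 ± 0.10, adjusted p = 0.0132), and the value was -0.16 without 48 h monolayer replicate 1 (adjusted p = 0.0926) and -0.26 without 48 h spheroid replicate 2 (adjusted p = 0.0631). It rose with time 1.86-fold in monolayers (adjusted p = 2.03e-07) and 1.35-fold in spheroids (adjusted p = 0.00144). The difference between the spheroid effects was -0.46 ± 0.13 (adjusted p = 0.00813).

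Irs2, the other widely expressed substrate gene, took a different course from Irs1. It stood at 19.8, 14.8 and 10.2 CPM in 48 h monolayers, 30.2, 32.9 and 33.2 in 48 h spheroids, 36.2, 34.9 and 31.4 in 96 h monolayers, and 17.8, 15.1 and 16.9 in 96 h spheroids. The 48 h spheroids and 96 h monolayers formed a high pair of groups that overlapped each other, and the remaining pair was low and also overlapped. Spheroids were 2.16-fold higher at 48 h (log2 1.11 ± 0.15, adjusted p = 4.41e-06) and 2.05-fold lower at 96 h (log2 -1.04 ± 0.14, adjusted p = 3.13e-06), a reversal of -2.15 ± 0.21 (adjusted p = 9.97e-08). With time Irs2 rose 2.301-fold in monolayers (adjusted p = 1.60e-06) and fell 1.93-fold in spheroids (adjusted p = 4.14e-05). Irs2 FPKM per Irs1 FPKM was 1.201 ± 0.103 in 48 h spheroids and between 0.37 and 0.58 in each library of the other groups. Within the 48 h monolayers Igf1r, Insr, Irs1 and Irs2 were each highest in replicate 1 and lowest in replicate 3. This order was not particular to them: Igf2r and Pappa, described below, had it too. Igfbp2, Igfbp3, Igfbp4, Igfbp6 and Igfbp7 had the reverse order.

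Over time, all 10 genes were called in monolayers, 6 higher and 4 lower at 96 h, against 61.3% of all tested genes (30.1% higher and 31.3% lower). In spheroids 8 were called, 3 higher and 5 lower, against 39.8% of all tested genes (19.3% higher and 20.5% lower). The median log2 change was 0.22 in monolayers and -0.38 in spheroids, beside 0.01 over all genes in each. By role, both receptors and both substrates rose in monolayers, where 2 binding proteins rose and 4 fell. In spheroids neither receptor was called, 1 substrate rose and 1 fell, and 2 binding proteins rose and 4 fell. The 96 h monolayers were the group where Igf1r, Insr, Irs1 and Irs2 had their highest means. The spheroid effects at the 2 times differed for 7 of the 10 genes, 2 toward higher and 5 toward lower, against 53.3% of all tested genes (26.9% and 26.4%). The 4 comparisons share groups of libraries with one another.

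Ligand mRNAs were scarce in all groups. Igf1, which encodes the main circulating growth-promoting IGF, stood at 4.61 ± 0.57 CPM in 48 h monolayers, 3.24 ± 0.69 in 48 h spheroids, 1.09 ± 0.83 in 96 h monolayers and 1.32 ± 0.12 in 96 h spheroids, from 153, 92, 35 and 51 counts. It fell with time 4.15-fold in monolayers (adjusted p = 4.76e-05) and 2.46-fold in spheroids (adjusted p = 0.00505), and its format differences were -0.50 at 48 h (adjusted p = 0.153) and 0.26 at 96 h (adjusted p = 0.565). Without 96 h monolayer replicate 3 the 96 h format difference was 1.152 (adjusted p = 0.0163). Igf2, the ligand best known for fetal growth, had 20 to 35 counts in each group and means from 0.64 to 1.23 CPM, and no comparison called it (adjusted p from 0.216 to 0.907). Igfbp1, the remaining high-affinity binding protein gene, was at 0 counts in all 12 libraries, where 3 counts would stand for 0.223 to 0.376 CPM. Igf2r, the receptor that takes IGF2 up for degradation, was more abundant, at 336 ± 58, 291 ± 4.3, 439 ± 4.5 and 353 ± 13 CPM in 48 h monolayers, 48 h spheroids, 96 h monolayers and 96 h spheroids. Spheroids were 1.24-fold lower in Igf2r at 96 h (adjusted p = 0.00415), and at 48 h the log2 difference was -0.20 (adjusted p = 0.0614), or -0.34 without 48 h monolayer replicate 3 (adjusted p = 7.75e-05). It was also called at 48 h under DESeq2-type size factors, upper-quartile scaling, no filter and DESeq2, at -0.21 to -0.25 (adjusted p from 0.0213 to 0.0411).

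The list held 6 tested genes for further binding subunits and for regulators of binding protein cleavage. Of these 6, 1 was higher and 3 were lower in spheroids at 48 h, and 2 were higher and 4 lower at 96 h. Over all tested genes, 31.6% were higher and 26.4% lower at 48 h, and 37.3% higher and 36.5% lower at 96 h. Pappa encodes pappalysin-1, the protease that cuts IGFBP4 and IGFBP5. It measured 172, 153 and 106 CPM in 48 h monolayers, 8.14, 6.25 and 6.12 in 48 h spheroids, 115, 132 and 154 in 96 h monolayers, and 5.43, 3.95 and 5.12 in 96 h spheroids. The lowest monolayer library was far above the highest spheroid library. Pappa was 20.8-fold lower in spheroids at 48 h (log2 -4.38 ± 0.19, adjusted p = 5.10e-13) and 27.5-fold lower at 96 h (log2 -4.78 ± 0.19, adjusted p = 8.15e-14), with smaller values on log2 FPKM, -2.98 and -3.24. Its changes with time were not called (adjusted p = 0.522 in monolayers and 0.154 in spheroids). Stc2 encodes stanniocalcin-2, a secreted inhibitor of pappalysin-1, and ran the other way. It measured 26.7, 28.1 and 28 CPM in 48 h monolayers, 223, 230 and 221 in 48 h spheroids, 25.1, 25.4 and 30.6 in 96 h monolayers, and 108, 109 and 110 in 96 h spheroids. The spheroid libraries were all above the monolayer libraries, by 8.13-fold at 48 h (adjusted p = 1.56e-16) and 4.02-fold at 96 h (adjusted p = 2.67e-14), and Stc2 fell 2.06-fold with time in spheroids (adjusted p = 2.85e-10). Htra1, a secreted serine protease that can cut IGFBP5, was 253 ± 16, 94.3 ± 3.2, 168 ± 8.4 and 63.1 ± 2.0 CPM in 48 h monolayers, 48 h spheroids, 96 h monolayers and 96 h spheroids. It was 2.68-fold lower in spheroids at 48 h (adjusted p = 1.59e-12) and 2.66-fold lower at 96 h (adjusted p = 1.19e-12). At both times, then, the format with more Igfbp4 and Igfbp5 mRNA had less Pappa and Htra1 mRNA and more Stc2 mRNA. Stc1, which encodes the related stanniocalcin-1 and was picked after its values were seen, ran against Stc2 at 96 h. Its level was 12.2 ± 1.1 CPM in 96 h monolayers and 4.39 ± 0.35 in 96 h spheroids, without overlap. At 48 h it was 6.96 ± 0.15 CPM in monolayers and 5.26 ± 1.9 in spheroids. Igfals, the acid-labile subunit that joins serum IGF complexes, lay below the level at which listed genes were named and was picked after its values were seen: it had 25 counts in 96 h monolayers and 319 in 96 h spheroids, a 10.4-fold difference (adjusted p = 9.62e-10).

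**Figure D4:**
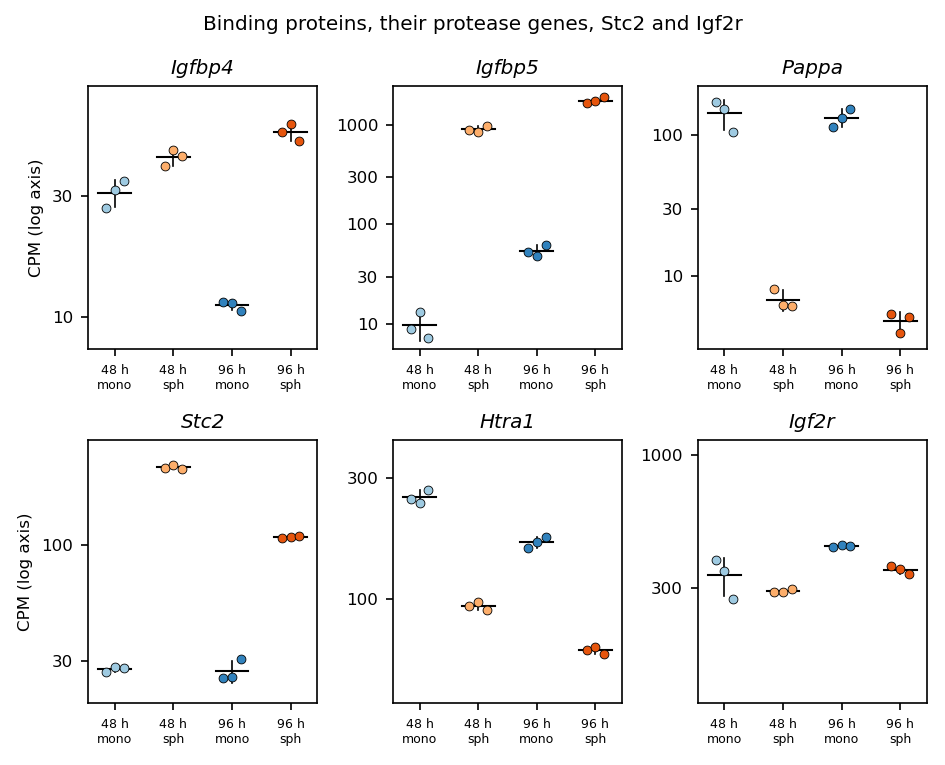
CPM on a log axis of Igfbp4, Igfbp5, the protease genes Pappa and Htra1, the inhibitor gene Stc2 and the receptor gene Igf2r in the 12 libraries, with means and SD. Pappa lies at or below 8.14 CPM in the spheroids and at or above 106 CPM in the monolayers, and Stc2 and Igfbp5 are higher in spheroids.

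Of 59 listed genes of the same pathway, 52 passed the filter on low counts. At 48 h, 19 were higher and 18 lower in spheroids, with a median of -0.06, and at 96 h 16 were higher and 21 lower, with a median of -0.06. In monolayers 23 rose and 12 fell with time (median 0.16), and in spheroids 16 rose and 11 fell (median 0.06), beside 30.1% of all tested genes higher and 31.3% lower in monolayers and 19.3% higher and 20.5% lower in spheroids. Among the 12 PI3K and AKT genes, 4 were higher and 4 lower in spheroids at 48 h, and 5 higher and 4 lower at 96 h. Pik3r1, which encodes the main regulatory subunit of PI3K, had 61.1 ± 6.7, 181 ± 15, 122 ± 3.9 and 288 ± 6.7 CPM in 48 h monolayers, 48 h spheroids, 96 h monolayers and 96 h spheroids, without overlap. It was 2.97-fold higher in spheroids at 48 h (adjusted p = 6.53e-12) and 2.37-fold higher at 96 h (adjusted p = 5.36e-11), and rose with time in monolayers (1.99-fold, adjusted p = 7.47e-09) and in spheroids (1.59-fold, adjusted p = 1.02e-06). Pik3r3, a second regulatory subunit gene, was 1.76-fold higher in spheroids at 96 h (adjusted p = 4.99e-07) and rose 1.81-fold with time in spheroids (adjusted p = 1.33e-06). The catalytic subunit gene Pik3cb was lower in spheroids, at 66.1 ± 1.2 against 174 ± 7.9 CPM at 48 h (2.63-fold, adjusted p = 7.38e-13), and fell 1.69-fold with time in monolayers (adjusted p = 4.41e-09).

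The 6 genes listed as inhibitors of the receptors included Ide, which encodes the insulin-degrading enzyme and not a receptor inhibitor. Of the 6, 4 were higher and 2 lower in spheroids at 48 h, and 2 higher and 4 lower at 96 h. Ide was among the higher genes at both times. Of all tested genes, 57.9% were called at 48 h and 73.8% at 96 h. Socs3, a feedback inhibitor that cytokine and insulin signals induce, showed a reversal of the format difference, as Irs2 did: 10.2 ± 1.4 CPM in 48 h monolayers, 28.3 ± 3.5 in 48 h spheroids, 23.7 ± 5.1 in 96 h monolayers and 17.8 ± 1.2 in 96 h spheroids. It was 2.78-fold higher in spheroids at 48 h (adjusted p = 8.56e-08) and 1.35-fold lower at 96 h (adjusted p = 0.00831), and it rose 2.36-fold with time in monolayers (adjusted p = 1.14e-06) and fell 1.59-fold in spheroids (adjusted p = 0.000661). The adaptor gene Grb10, whose protein dampens both receptors, was lower in spheroids, at 69.5 ± 4.1 against 200 ± 15 CPM at 48 h (2.87-fold, adjusted p = 1.91e-12). Grb14, a related adaptor, fell with time 2.63-fold in monolayers (adjusted p = 9.22e-10) and 1.72-fold in spheroids (adjusted p = 2.48e-05). Of the 4 genes that hold back PI3K signalling, 2 rose and none fell with time in monolayers, and 2 rose and 1 fell in spheroids, where 61.3% and 39.8% of all tested genes were called. Pik3ip1 (2.26-fold, adjusted p = 7.21e-05) and Trib3 (1.70-fold, adjusted p = 2.30e-07), whose proteins restrain PI3K and AKT, were the 2 that rose in spheroids.

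The 6 listed FoxO and sestrin genes included 4 that rose and none that fell with time in monolayers, and 3 that rose and none that fell in spheroids, beside 30.1% and 19.3% of all tested genes that rose. Foxo3 encodes a FoxO factor and rose 1.90-fold in monolayers (adjusted p = 4.90e-07), and Sesn3, which encodes a stress-induced inhibitor of mTOR complex 1, rose 2.01-fold (adjusted p = 2.71e-07). Sesn3 was 2.09-fold lower in spheroids than in monolayers at 96 h (adjusted p = 4.85e-08), and Sesn1, a related gene, was 2.20-fold higher in spheroids at 48 h (adjusted p = 2.96e-08). Among the 9 mTOR genes 4 were higher and 3 lower in spheroids at 48 h, and 3 higher and 2 lower at 96 h. Mlst8, a shared subunit of the mTOR complexes, was 1.70-fold higher in spheroids at 96 h (adjusted p = 8.45e-07), and Rheb, the GTPase that activates mTOR complex 1, fell 1.40-fold with time in monolayers (adjusted p = 3.15e-05). Shares called in this list, 37 of 52 in each format comparison, are to be read beside the 57.9% and 73.8% over all genes given above.

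**Figure D5:**
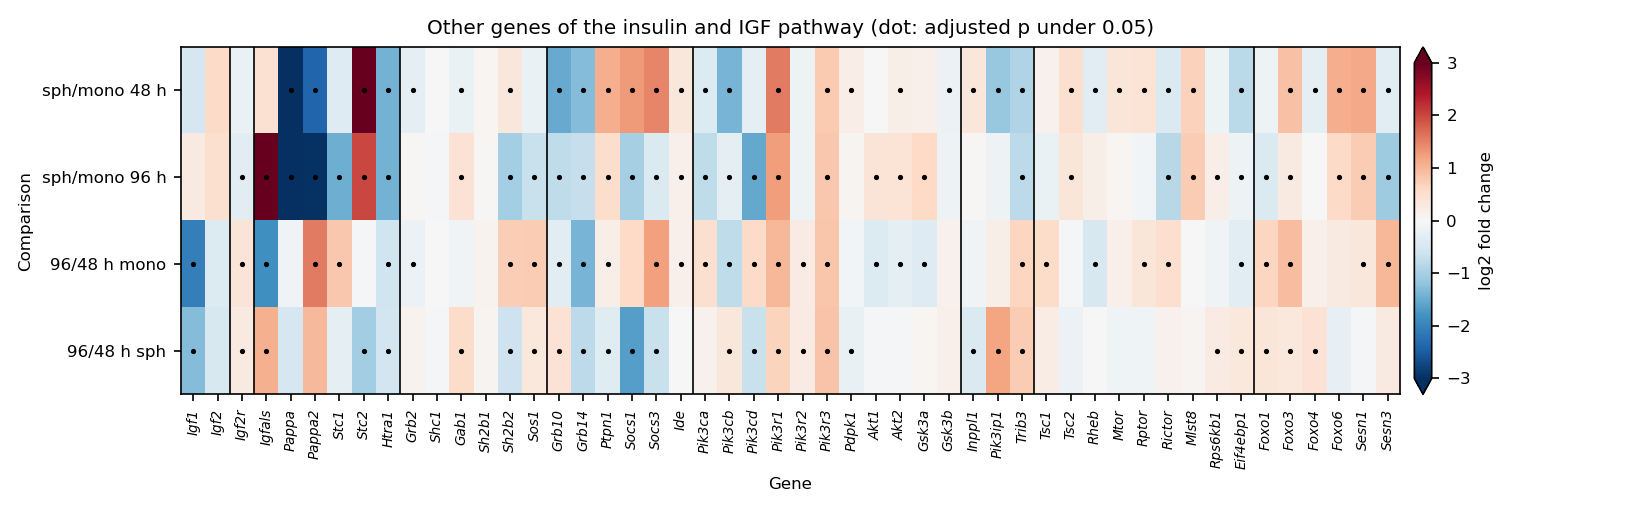
Log2 differences of 50 of the 52 tested pathway genes in 4 comparisons, with the colour scale ending at -3 and 3 and dots on the called genes. Pappa lies past the lower end of the scale in both spheroid to monolayer rows, at -4.38 and -4.78, and Stc2 past the upper end at 48 h, at 3.02.

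Across the 12 libraries, which share their groups, the log2 CPM of Igfbp3 and Igfbp7 had a Pearson correlation of 0.95, that of Igfbp5 and Igfbp7 one of -0.98, and that of Insr and Irs1 one of 0.94. The genes nearest in pattern to each of the 10, by the same measure, were Lamb1, Pmepa1 and Pip4k2a for Igfbp3 (0.997, 0.994 and 0.992), Htra1 for Igfbp7 (0.997), BC006965, Esyt3 and Chpt1 for Igfbp5 (0.994, 0.994 and 0.993), and Anxa4, Sae1 and Kpna2 for Igfbp4 (0.995, 0.994 and 0.993). Next came Rasal2 for Igf1r (0.992), Gjb2 for Igfbp2 (0.99), Srgap3 for Insr (0.986), Sos1 and Foxo1 for Irs1 (0.983 each), Tgfb1i1 for Igfbp6 (0.974) and Man2a2 for Irs2 (0.966). On the log2 FPKM values Chpt1 ranked 221st for Igfbp5 and Srgap3 38th for Insr, so these 2 depend on the values used. With 4 groups of 3, such values describe shared group levels and carry no test.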

How the data were processed

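Per the submitters' processing notes, the tools named by the authors were RSEM 1.2.30, Bowtie 1.0.1 and bcl2fastq 2.15.0, with mouse build mm9. The authors deposited expected counts, the read numbers RSEM estimates per gene, already rounded to whole numbers, log2(FPKM + 1) values, and gene symbols for each row. The sources used here give neither program options nor strand, so reads from overlapping or antisense genes cannot be told apart.

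Genes were kept by filterByExpr (minimum count 10, minimum total 15), which left 13951 of 28427 rows. One edgeR 4.0.16 quasi-likelihood model (R 4.3.3) with TMM scaling, factors 0.923 to 1.07, and group as its only term was fitted to all 12 libraries, with library totals from 7674105 to 13554497 counts and a common dispersion of 0.00501. The 5 contrasts were spheroid against monolayer at 48 h and at 96 h, 96 h against 48 h in each format, and the difference between the spheroid effects, 96 h minus 48 h. P-values were adjusted in each contrast, with a threshold of 0.05, and the SE was the log2 difference over the square root of F. Reads carried no molecular identifiers, so counting limits cover counting error only. FPKM was used to compare genes with each other.

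The 10 genes, the 59 pathway genes and the markers were chosen with earlier results of these data known. From the pathway list, Igf1, Igf2 and Igf2r were always named, with the 4 called genes of largest log2 difference in each direction and contrast among those whose mean log2 CPM reached 3. Of these genes 2 are counted in the list but not reported here by name. Genes of similar pattern were the 3 with the highest correlation of log2 CPM (prior count 2), of which the nearest are printed. The test was checked on simulated counts. Alternatives were scaling by DESeq2-type size factors, by the upper quartile or by total counts, no filter, a filter at 50 counts, DESeq2 1.42.0, limma 3.58.1 on the log2 FPKM values, fits of 2 groups, a replicate block and leaving out each library.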

Additional observations from a re-analysis of the deposited data

Results flagged for a closer look

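For 7 of the 10 genes the spheroid effect at 96 h differed from that at 48 h by the test of the difference itself. The log2 values, 96 h minus 48 h, were 2.13 for Igfbp2, 1.81 for Igfbp4, -1.02 for Igfbp3, -1.51 for Igfbp5, -0.68 for Insr, -0.46 for Irs1 and -2.15 for Irs2. Igfbp2 and Irs2 had called effects of opposite sign at the 2 times. Socs3 also changed sign, with a difference of -1.90 (adjusted p = 3.04e-07). For Sesn3 the difference was -0.74 and for Stc2 -1.02. Toward higher values in spheroids, it was 1.10 for Pik3cb, 0.99 for Pik3ip1, 0.75 for Grb10 and 0.64 for Eif4ebp1, which encodes a repressor of translation that mTOR inactivates.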

How the results depend on the processing

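No count of called genes, over the 10, the pathway list or all genes, moved by over 1.5 times under any alternative run. With each library left out in turn, 7 to 9 of the 10 were called at 48 h between formats, 10 at 96 h, 8 to 10 over time in monolayers, 8 in spheroids, and 7 or 8 for the difference between the spheroid effects. Of the single values of the 10 genes, 998 kept direction and side of the threshold, 25 lost the call, 8 gained it and 9 changed sign, the last all for Insr or Igf1r at values near 0. Insr between formats at 48 h became 0.10 under total count scaling and 0.24 on log2 FPKM, and 0.11 without 48 h monolayer replicate 1 and 0.02 without 48 h spheroid replicate 2, with a leave-one-out range from -0.089 to 0.11. Insr over time in spheroids became -5e-04 under upper-quartile scaling, -0.0014 with the stricter filter and -0.071 on log2 FPKM. Igf1r over time in spheroids became 0.022 without 48 h spheroid replicate 3 and 0.015 without 96 h spheroid replicate 2, with a leave-one-out range from -0.064 to 0.022. Between formats at 48 h, the calls of Igf1r and Irs1 were lost under total count scaling (-0.20 each, adjusted p = 0.0929 and 0.114) and on log2 FPKM. The Igf1r difference between the spheroid effects was called under upper-quartile scaling (-0.34), total count scaling (-0.44), the stricter filter (-0.32), on log2 FPKM (-0.37) and without 48 h monolayer replicate 1 (-0.38). Pathway values, an alternative chosen after seeing the data, changed sign for Igf1, Igf2 and Igf2r: Igf1 on log2 FPKM became 0.011 at 48 h, -0.15 at 96 h and -0.16 for the difference of effects, and its 96 h value ranged from -0.16 without 96 h monolayer replicate 1 to 1.152 without replicate 3. Igf2 over time in monolayers ranged from -0.70 to 0.049 over the libraries left out, the last without 48 h monolayer replicate 2, and its difference of effects, from -0.54 to 0.21, became 0.21, 0.0091 and 0.12 without 48 h monolayer replicate 3, 96 h monolayer replicate 2 and 96 h spheroid replicate 1. That of Igf2r ranged from -0.21 to 0.020, the last without 48 h monolayer replicate 3. The fall of Igf1 over time in monolayers was -0.55 on log2 FPKM and -2.94 without 96 h monolayer replicate 3, against -2.05. Total count scaling moved the all-gene median by 0.11 between formats at 48 h, 0.17 over time in monolayers and -0.19 for the difference of effects; relative to these shifts the Insr value of 0.10 at 48 h is near 0.

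Replicate numbers recur in the 4 groups, but the deviations of the 18 same-numbered pairs correlated at -0.11 to 0.09, none above 0.1. In 9 of 36 choices a library correlated best with its own number. With 3 libraries a group, such values cannot settle whether same-numbered cultures shared a source, and the main model assumed no pairing. A replicate block called 8110 genes between formats at 48 h, 10287 at 96 h, and 8537 and 5501 over time in monolayers and spheroids, against 8081, 10296, 8556 and 5547 without it, and the same counts of the 10 genes, 9, 10, 10 and 8. The low counts of Igf1, Igf2 and, in 96 h monolayers, Igfbp2 limit their precision.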
